A study of Mus musculus with 6 samples.

Results

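The 5 genes described here encode proteins that sense or convert extracellular adenosine nucleotides: the ATP-gated channels P2X7 (P2rx7) and P2X4 (P2rx4), the ectonucleotidases CD39 (Entpd1) and CD73 (Nt5e), and the adenosine A2A receptor (Adora2a). They were chosen by name, P2rx7 because it was among the most strongly lowered genes of the comparison and its partners for their function, and all 5 were found among the 15445 genes of the count table. The samples were monoclonal transgenic CD4+ T cells of C57BL/6 mice (the transgene is not named in the labels used here), taken from spleen at day 5 after infection with LCMV, lymphocytic choriomeningitis virus, and sorted on CD4, CD25 and Thy1.1, a surface marker that tells donor from host cells in many transfer designs. CD25, encoded by Il2ra, is the chain that raises the affinity of the interleukin-2 receptor. Sorted cells with much CD25 on their surface gave 3 libraries (CD25-high) and cells with little CD25 gave 3 (CD25-low), with no uninfected or unsorted group, and the labels do not tell whether libraries of a group came from different mice, so the tests below measure the spread between these libraries, part of which may be technical.

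ATP leaves activated, infected or dying cells and acts on surface receptors of T cells. P2X7 opens only at high ATP, lets in calcium and sodium, and can lead to shedding of surface proteins, exposure of phosphatidylserine and death of the cell; on mouse T cells it can also be opened by ADP-ribosylation from NAD through the ectoenzyme ART2.2, the product of Art2b. CD39 converts ATP and ADP to AMP, CD73 converts AMP to adenosine, and adenosine acting on the A2A receptor raises cyclic AMP and dampens T cell activation. In mice, P2X7 and CD73 have both been described on follicular helper T cells, the CD4+ cells that help B cells.

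Library totals ran from 16787233 to 23567066 counts. Il2ra matched the sort in each library, at 432 to 1536 CPM (the count scaled to sequencing depth, here by TMM-adjusted library sizes) in CD25-high and 20.7 to 35.7 CPM in CD25-low libraries. The libraries numbered 1 stood apart from the others in both groups, with 931 of 12987 tested genes (7.17%) called between them and the libraries numbered 2 and 3. Earlier results of these data had shown this and the contrast was chosen for it, so the calls are no separate evidence. Mitochondrial genes held 38.2, 35.1 and 32.0% of counts in CD25-high 1 to 3 and 38.3, 35.1 and 34.5% in CD25-low 1 to 3. The part of this share in the contrast was not tested. Of 10 T cell markers all were tested, with summed levels of 3684 to 3806 CPM on the CD25-high and 3997 to 5079 on the CD25-low side. With same-numbered libraries paired by a replicate block, 3 of the 10 were lower in CD25-high cells, where 2.9% of all tested genes were. These were Cd3d (-1.01, edgeR adjusted p 0.0134), Cd3g (-0.86, 0.0135) and Trbc1 (-0.89, 0.0058). Without the block edgeR called 0 of 10 (0.655% of all tested genes), and DESeq2 called Trbc1 (adjusted p 0.00281, 2.7% of all genes it tested). The part of these T cell markers in the lower members was not tested. Transcripts of B cells were scarce: the summed level of the 4 B cell markers used (Cd22, Cr2, Cd79b and Ebf1) was 3.89 to 12.5 CPM on the CD25-high and 11.7 to 17.4 on the CD25-low side. Since these are bulk samples, fewer cells with a transcript and less of it per cell cannot be told apart.

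P2rx7 was the gene of the group that separated the sorted populations most. The CD25-high libraries 1, 2 and 3 held 3.17, 0.852 and 1.86 CPM of P2rx7, from 56, 16 and 33 counts. The CD25-low libraries 1, 2 and 3 held 33.4, 87.4 and 56.7 CPM, from 611, 2053 and 1371 counts. The groups did not overlap, with the lowest CD25-low library (33.4 CPM) far above the highest CD25-high one (3.17 CPM). The group means were 1.96 ± 1.16 and 59.2 ± 27.1 CPM (SD, n = 3 each), a log2 fold change of -4.91 ± 0.52 (SE) for CD25-high over CD25-low, which is a 30.2-fold lower level. P2rx7 entered this description because of that difference, so no p is given for it, and where it stands among genes called in this contrast that follows from the choice. The difference between same-numbered libraries was -3.36 for number 1, -6.52 for number 2 and -4.86 for number 3 on the log2 CPM scale. Library 2 therefore held both the highest CD25-low and the lowest CD25-high value.

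P2rx7 (ENSMUSG00000029468) is a plus-strand gene of chromosome 5 (122643911 to 122691432 in GRCm38, the assembly also called mm10). RefSeq lists a pair of start sites for it, 6.46 kb apart, and the downstream one begins the transcript of a splice form with another first exon, described in mouse T cells as the form that ADP-ribosylation opens. The counts are per gene and do not separate these forms. The gene also shares 119 exonic bases with the microRNA gene Mir8115 on its own strand, which has no row in the table. The 300-base windows around both starts (250 bases before and 50 after, RefSeq, GRCm38.p6, plus strand) are printed with that of P2rx4, the neighbour on the same strand, because the counts of the 2 genes differ between the sorted populations to such different extents. Capitals mark matches to CTTTGA, the core read by TCF and LEF factors, and to GGGCGG, the GC box, each on either strand.
P2rx7 upstream start, chr5:122643677-122643976: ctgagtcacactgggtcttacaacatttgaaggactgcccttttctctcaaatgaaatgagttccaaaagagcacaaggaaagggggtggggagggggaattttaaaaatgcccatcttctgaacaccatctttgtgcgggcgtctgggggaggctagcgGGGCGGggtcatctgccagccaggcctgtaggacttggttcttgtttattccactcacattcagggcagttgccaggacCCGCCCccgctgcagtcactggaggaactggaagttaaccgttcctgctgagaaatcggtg
P2rx7 downstream start, chr5:122650133-122650432: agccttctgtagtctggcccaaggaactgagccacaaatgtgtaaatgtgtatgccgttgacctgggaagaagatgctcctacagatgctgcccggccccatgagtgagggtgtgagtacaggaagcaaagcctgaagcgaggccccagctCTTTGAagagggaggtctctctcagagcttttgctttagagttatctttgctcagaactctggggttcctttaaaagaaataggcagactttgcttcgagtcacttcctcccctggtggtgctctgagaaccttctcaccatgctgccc
P2rx4, chr5:122707294-122707593: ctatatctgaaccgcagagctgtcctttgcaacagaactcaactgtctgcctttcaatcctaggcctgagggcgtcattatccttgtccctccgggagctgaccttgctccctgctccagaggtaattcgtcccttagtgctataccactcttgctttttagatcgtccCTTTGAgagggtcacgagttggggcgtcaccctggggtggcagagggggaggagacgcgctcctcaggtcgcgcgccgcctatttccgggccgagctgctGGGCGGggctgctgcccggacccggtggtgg
The upstream P2rx7 window held 2 GC boxes and no CTTTGA, the downstream one 1 CTTTGA and no GC box, and the P2rx4 window 1 of each. Of all 32851 RefSeq promoter windows of this length, 35.7% held a GC box and 16% held CTTTGA. The STAT core TTCNNNGAA, its own reverse complement, was searched as well, was in none of the 6 windows of the members, and was in 8.3% of all windows. These matches describe the letters of the windows only, and no binding was measured.

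**Figure D1:**
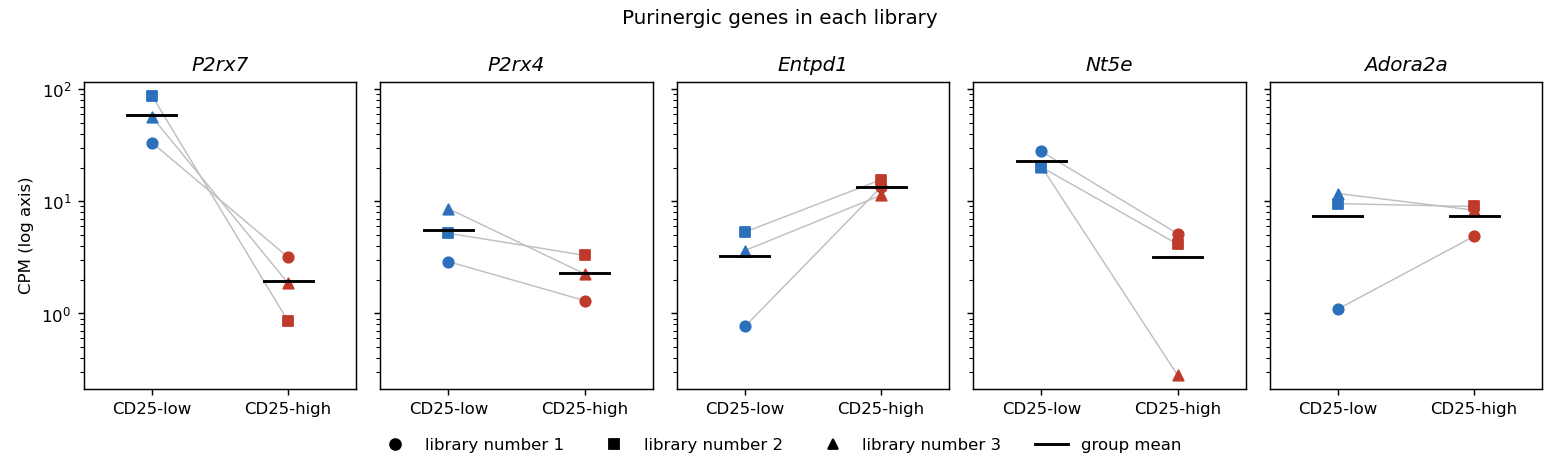
CPM of the 5 genes (log axis) in the CD25-low (blue) and CD25-high (red) libraries, with a symbol for each library number, grey lines between same-numbered libraries and black bars for group means. The groups do not overlap for P2rx7, Entpd1 and Nt5e, and overlap for P2rx4 and Adora2a.

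P2rx4 encodes a related channel that answers to lower ATP, and its gene starts 16.1 kb past the end of P2rx7 (ENSMUSG00000029470, plus strand of chromosome 5, 122707544 to 122729738). Its CD25-high libraries held 1.30, 3.30 and 2.26 CPM and its CD25-low libraries 2.90, 5.19 and 8.60 CPM. The groups overlapped, since CD25-high library 2 was above CD25-low library 1, although each CD25-high library was below the CD25-low library of its number. Its fold change (log2) was -1.28 ± 0.56 (SE) and did not pass the test (edgeR adjusted p 0.437). Per kilobase of exon, the scale on which genes can be set beside each other, P2rx4 was at 0.33 ± 0.14 CPM per kb in CD25-high cells, the same mean as P2rx7 (0.33 ± 0.20, SD, n = 3 each). In CD25-low cells P2rx7 reached 9.91 ± 4.54 CPM per kb and P2rx4 0.79 ± 0.41. The ratio of P2rx7 to P2rx4 on this scale was 13.6, 19.8 and 7.76 across CD25-low 1 to 3, and 2.87, 0.304 and 0.971 across CD25-high 1 to 3. P2X7 was thus the more abundant channel transcript in each CD25-low library and in CD25-high library 1.

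The 9 protein-coding genes that reach within 250 kb of P2rx7 were then read beside it. None of the 9 was called by edgeR with or without the replicate block, by DESeq2 or by limma voom. Over all tested genes the shares called were 0.655% for edgeR, 4.63% with the block and 2.7% for DESeq2. A set of 9 without a call is near these shares, so nothing is read from it. At an unadjusted p under 0.05 edgeR gave 1 higher (Atp2a2) and 1 lower (P2rx4), with adjusted p-values of 0.394 and 0.437. For that unadjusted threshold no share of all tested genes is given. The 8 neighbours other than P2rx4 had log2 fold changes from -0.44 to 1.28. Ift81, a gene of cilium transport that like Atp2a2 was singled out after its values were seen, marked the upper end at 1.28 ± 0.89 (SE) and was at 0.266 to 3.29 CPM over the 6 libraries. Anapc5, a subunit of the anaphase-promoting complex, had the smallest change, 0.00 ± 0.20, at 98.2 to 124 CPM on the CD25-high side and overlapping with it on the CD25-low side.

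**Figure D2:**
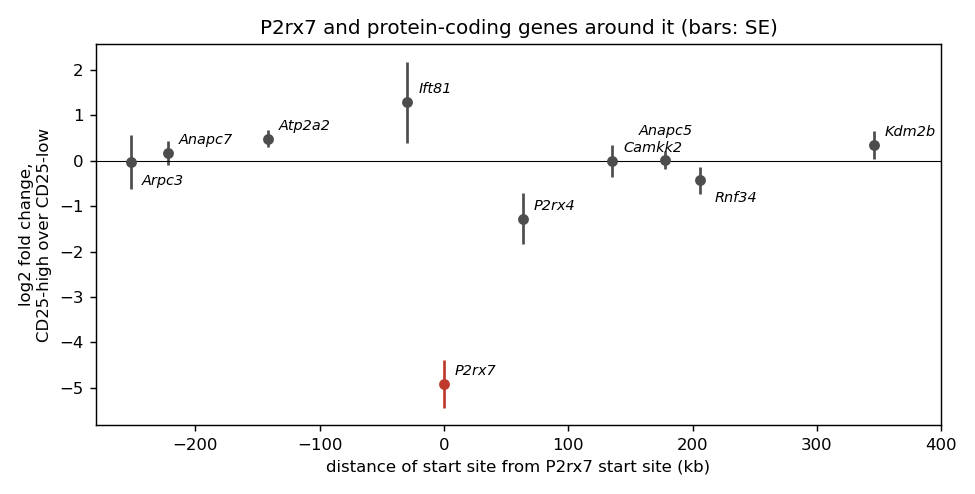
Log2 fold change (CD25-high over CD25-low, bars SE) of P2rx7 (red) and the 9 protein-coding genes around it, by distance of each start site from that of P2rx7 in kb. P2rx7 lies at -4.91, P2rx4 at -1.28 and the other 8 between -0.44 and 1.28.

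The 2 ectonucleotidases differed in opposite directions. Entpd1, the CD39 gene that takes ATP and ADP to AMP, had 13.4, 15.6 and 11.3 CPM across CD25-high 1 to 3. Across CD25-low 1 to 3 it had 0.766, 5.32 and 3.64 CPM. All CD25-high libraries were above all CD25-low ones, and CD25-low library 1 was far below the other 2 of its group. The means were 13.5 ± 2.13 and 3.24 ± 2.30 CPM (SD, n = 3 each). The log2 fold change of 2.04 ± 0.57 (SE) did not pass the edgeR test (adjusted p 0.195), and with same-numbered libraries paired through a replicate block Entpd1 rose by 2.30 ± 0.50 (adjusted p 0.0176).

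Nt5e, the CD73 gene that takes AMP to adenosine, had 5.16, 4.15 and 0.282 CPM across CD25-high 1 to 3. It had 27.8, 20.2 and 20.4 CPM across CD25-low 1 to 3. The groups did not overlap, the CD25-low libraries were close together, and CD25-high library 3, with 5 counts, was far below its group. The means were 3.20 ± 2.57 and 22.8 ± 4.35 CPM (SD, n = 3 each). The log2 fold change of -2.83 ± 0.70 (SE) did not pass the edgeR test (adjusted p 0.13), and with the replicate block it was -3.21 ± 0.56 and Nt5e fell (adjusted p 0.00466).

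Set against each other per kilobase of exon, Entpd1 exceeded Nt5e in every CD25-high library and Nt5e exceeded Entpd1 in every CD25-low library. The ratio of Entpd1 to Nt5e was 4.01, 5.79 and 62.0 across CD25-high 1 to 3, and 0.0424, 0.407 and 0.275 across CD25-low 1 to 3. The mean log2 ratio was 3.50 ± 2.14 in CD25-high and -2.57 ± 1.74 in CD25-low cells (SD, n = 3 each), a difference of 6.07. No test of this difference is given, since neither gene overlapped between the groups and the ratio therefore could not. The most extreme ratios came from CD25-high library 3, through its low Nt5e, and CD25-low library 1, through its low Entpd1. Without either of these libraries the difference was 4.84 and 5.08.

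**Figure D3:**
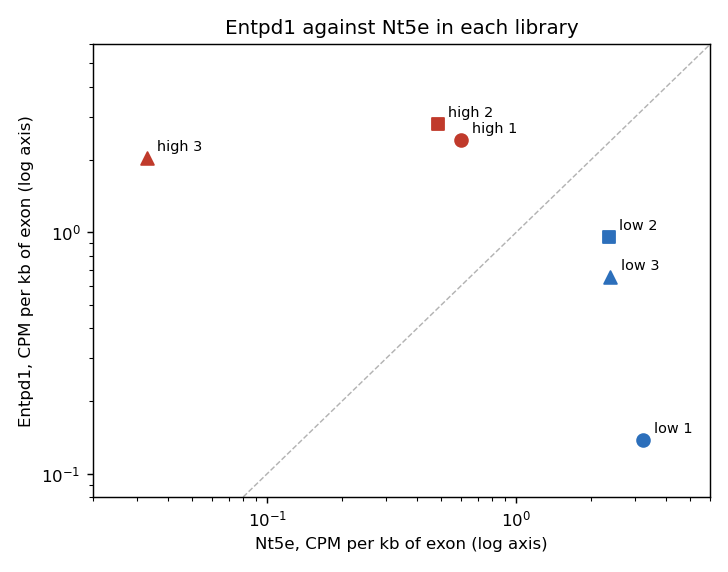
Entpd1 against Nt5e in CPM per kb of exon (both axes log), 1 point per library, CD25-high in red and CD25-low in blue, symbols by library number, and a dashed line where both are equal. The CD25-high libraries lie above the line, with ratios of 4.01 to 62.0, and the CD25-low libraries below it, with ratios of 0.0424 to 0.407.

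Entpd1 (ENSMUSG00000048120) is a plus-strand gene of chromosome 19 (40612366 to 40741602), and Nt5e (ENSMUSG00000032420) one of chromosome 9 (88327197 to 88372092). Their RefSeq windows (GRCm38.p6, plus strand, the first of 2 for Entpd1) are shown as those of the enzymes that went opposite ways, with GC boxes in capitals.
Entpd1, chr19:40612116-40612415: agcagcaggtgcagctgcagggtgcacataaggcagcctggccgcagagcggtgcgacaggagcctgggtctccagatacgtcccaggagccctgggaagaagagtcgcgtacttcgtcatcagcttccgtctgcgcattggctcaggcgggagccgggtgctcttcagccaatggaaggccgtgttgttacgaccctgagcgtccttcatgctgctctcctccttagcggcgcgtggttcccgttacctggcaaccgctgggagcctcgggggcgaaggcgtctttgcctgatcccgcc
Nt5e, chr9:88327359-88327658: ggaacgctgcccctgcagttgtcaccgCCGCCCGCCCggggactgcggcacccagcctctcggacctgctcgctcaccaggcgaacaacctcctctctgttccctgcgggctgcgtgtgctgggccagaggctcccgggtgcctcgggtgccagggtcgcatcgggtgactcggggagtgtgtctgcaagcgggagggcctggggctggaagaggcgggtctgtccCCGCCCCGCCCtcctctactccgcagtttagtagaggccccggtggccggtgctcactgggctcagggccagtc
The Nt5e window, with 71% G and C, held 4 GC boxes that overlap in pairs. The Entpd1 window, with 64% G and C, held no match to any of the 3 motifs.

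CD39 is also made by regulatory T cells, B cells and myeloid cells, so their markers were read beside Entpd1. The summed monocyte and macrophage markers were 26.8 to 87.6 CPM on the CD25-high and 12.9 to 42.4 on the CD25-low side, with 6 of 10 having no row, among them Adgre1 and Cd14. In 5 of the 6 libraries most of that sum was Itgam, an integrin chain that activated T cells can carry too, at 21.1, 77.2 and 71.6 CPM across CD25-high 1 to 3 and 5.03, 26.3 and 32.1 CPM across CD25-low 1 to 3. In CD25-low library 1 Cd68 was as high, at 5.20 CPM. Itgam was not called without the block (edgeR adjusted p 0.433) and rose with it (0.0013). Lyz2, a defining marker, was at 0 to 0.338 CPM on the CD25-high and 0.0827 to 0.724 on the CD25-low side. Csf1r, a further monocyte and macrophage marker, was at 1.52 to 2.89 CPM on the CD25-high and 0.639 to 2.08 on the CD25-low side. Its log2 fold change was 0.66 ± 0.65 (SE, edgeR adjusted p 0.78), and that of Cd68 was -0.31 ± 0.46 (adjusted p 0.863). Foxp3, which defines regulatory T cells, was at 5.78, 2.29 and 3.84 CPM across CD25-high 1 to 3 and at 2.30, 1.92 and 0.744 CPM across CD25-low 1 to 3. Il2ra is on the list of 6 regulatory markers and was the sorting marker, and without it the other 5 summed to 289 to 431 CPM on the CD25-high and 438 to 645 on the CD25-low side. Most of that sum was Ctla4 and Ikzf2, with means of 233 and 180 CPM over the 6 libraries beside 2.81 for Foxp3, so it does not follow Foxp3. Foxp3 had a log2 fold change of 1.27 ± 0.61 (SE, edgeR adjusted p 0.49) and Ctla4 one of -0.10 ± 0.28 (adjusted p 0.929). Ikzf2, a transcription factor gene of that list, fell (-1.40 ± 0.22, edgeR adjusted p 0.0241). Dendritic cell markers summed to 6.54 to 18.2 CPM on the CD25-high and 6.73 to 16.0 on the CD25-low side, with 4 of 7 having no row. Neutrophil markers summed to 0 to 0.680 and 0 to 1.19 CPM, with 4 of 7 having no row. The part of all these cells in the Entpd1 difference was not tested.

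Adora2a, the receptor for the adenosine that CD73 makes, showed no common direction. It had 4.87, 8.998 and 8.35 CPM across CD25-high 1 to 3, and 1.09, 9.54 and 11.7 CPM across CD25-low 1 to 3. The groups overlapped, and CD25-low library 1 was the lowest of all 6. The log2 fold change was -0.01 ± 0.67 (SE, edgeR adjusted p 0.997), and 0.41 ± 0.49 with the replicate block (adjusted p 0.735). This error leaves room for a difference in either direction. Between same-numbered libraries the log2 CPM difference was 2.06 for number 1, -0.08 for number 2 and -0.49 for number 3. Adora2a (ENSMUSG00000020178) is a plus-strand gene of chromosome 10 (75316877 to 75334784).

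Among the members, 1 of 5 was called by edgeR (P2rx7, lower) where 0.655% of all tested genes were called (0.154% higher, 0.501% lower), and 3 of 5 with the replicate block (P2rx7 and Nt5e lower, Entpd1 higher) where 4.63% were. The libraries of the groups did not overlap for 3 of 5, against 16.9% of all tested genes (7.41% higher, 9.54% lower). DESeq2 called 3 of 5, against 2.7% of all genes it tested. Since the set was drawn up around P2rx7 with these results known, nothing is read from those shares. The order of the levels per kilobase changed between the populations. In CD25-low cells it ran from P2rx7 (9.91 ± 4.54 CPM per kb) through Nt5e (2.65 ± 0.51), Adora2a (2.44 ± 1.84) and P2rx4 (0.79 ± 0.41) to Entpd1 (0.58 ± 0.41, SD, n = 3 each). Below P2rx7, each gene and the next in this order were no further apart than the larger of their SDs. In CD25-high cells Adora2a (2.42 ± 0.72) and Entpd1 (2.41 ± 0.38) were level at the top, and Nt5e (0.37 ± 0.30), P2rx4 (0.33 ± 0.14) and P2rx7 (0.33 ± 0.20) were level at the bottom.

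The replicate numbers allow a second contrast, which the choice of genes did not use: libraries numbered 1 against those numbered 2 and 3, with the CD25 group as a term. It was chosen because the libraries numbered 1 stood apart in earlier results of these data. With edgeR, 0 of 5 members were called where 7.17% of all tested genes were (3.19% higher, 3.98% lower). At an unadjusted p under 0.05, 2 were lower, Adora2a and P2rx4. The share of all tested genes at that threshold is not given, so nothing is read from these 2. Adora2a had a log2 difference of -1.83 ± 0.54 (SE, adjusted p 0.0582). Without CD25-high library 1 the difference of Adora2a was -3.27, and without CD25-low library 1 it was -0.83. In each of these fits 1 library numbered 1 was left, which is assumed to vary like the others, so only the size is given. P2rx7 had a difference of -0.07 ± 0.47 (adjusted p 0.951) with library 1 the lowest of the CD25-low and the highest of the CD25-high group, and the sign turned without CD25-low library 1 (1.23) or CD25-low library 2 (0.26).

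**Figure D4:**
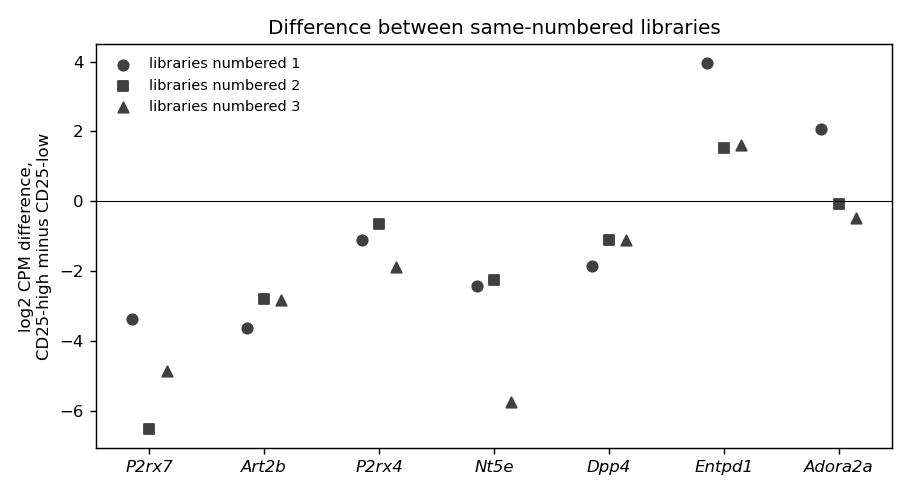
Log2 CPM difference, CD25-high minus CD25-low, between same-numbered libraries for the 5 genes with Art2b and Dpp4, with a symbol for each library number. All 3 differences are below 0 for P2rx7, Art2b, P2rx4, Nt5e and Dpp4 and above 0 for Entpd1, and Adora2a lies at 2.06, -0.08 and -0.49.

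A wider list of 69 genes of ATP release, purine receptors, nucleotide conversion, adenosine handling and the signals behind P2X7 and A2A was written with the difference in P2rx7 already known. Of these, 52 had a row, 46 passed the filter on low counts and 17 had no row. In the edgeR fit 2 were lower (P2rx7 and Dpp4, where 0.501% of all tested genes were lower) and 0 were higher, and 44 did not pass. At an unadjusted p under 0.05 there were 3 higher and 8 lower. DESeq2 called 2 higher and 4 lower, where 2.7% of all genes it tested were called in either direction. Limma voom called 0 higher and 2 lower. For the unadjusted and voom counts no share of all tested genes is given, so nothing is read from them. With the replicate block 4 were lower (P2rx7, Nt5e, Art2b and Dpp4, background 2.9%) and 1 was higher (Entpd1, background 1.73%). The median log2 fold change of the 46 was -0.03, beside 0.01 for all tested genes, so the list as a whole was centred where other genes were.

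Among the NAD-using enzymes, Art2b, whose product ADP-ribosylates P2X7, went the way of P2rx7. It had 0.397, 2.82 and 1.47 CPM across CD25-high 1 to 3, and 5.96, 20.1 and 10.9 CPM across CD25-low 1 to 3. The groups did not overlap, and library 2 was the highest in both. The log2 fold change was -2.97 ± 0.68 (SE, edgeR adjusted p 0.109), and with the replicate block Art2b fell (-3.13 ± 0.42, adjusted p 0.000784). Its close copy Art2a-ps, a pseudogene in this strain's annotation, had 1.07 to 6.12 CPM on the CD25-high and 1.97 to 15.8 on the CD25-low side and was called by neither fit (adjusted p 0.553, and 0.213 with the block). How reads were split between these copies is not known, and their summed level was 4.72 ± 3.66 CPM for the CD25-high and 20.7 ± 14.2 CPM for the CD25-low side (SD, n = 3 each), with CD25-high library 2 above CD25-low library 1. Art2b (ENSMUSG00000030651) is a minus-strand gene of chromosome 7 (101576970 to 101585600). Cd38, which consumes NAD at the cell surface, overlapped between groups (log2 fold change 0.23 ± 0.83, edgeR adjusted p 0.95) and was lower in the libraries numbered 1 (-2.79 ± 0.60, adjusted p 0.0135).

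Of 7 tested genes of adenosine handling, Dpp4 fell and 6 did not pass, where 0.501% of all tested genes were lower in edgeR without the block. Dpp4 encodes CD26, a surface peptidase that in humans anchors adenosine deaminase. It had 35.1, 43.8 and 37.8 CPM across CD25-high 1 to 3, and 127, 93.8 and 81.1 CPM across CD25-low 1 to 3, with no overlap. The log2 fold change was -1.37 ± 0.23 (SE, edgeR adjusted p 0.0273, and 0.00154 with the block). Without the block the call was lost when any single library but CD25-high 1 was left out (highest adjusted p 0.203). Dpp4 shares 232 exonic bases with Gm13561 on the other strand, so its count is uncertain to that extent. Slc29a3, an intracellular nucleoside transporter with the second highest CPM of these genes, had 30.7 to 54.9 CPM on the CD25-high and 31.2 to 43.9 on the CD25-low side (0.23 ± 0.27, edgeR adjusted p 0.82).

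The other receptors and release channels did not pass in either fit. Over all tested genes 0.655% passed without the block and 4.63% with it, so nothing is read from this. Of 9 P2Y receptors 6 had a row and 5 were tested, with the highest CPM for P2ry10 (12.3 to 24.2 CPM in CD25-high, 14.1 to 25.1 CPM in CD25-low, log2 fold change 0.00 ± 0.34) and P2ry10b (0.33 ± 0.42, adjusted p 0.834). Among 3 ATP release genes, the pannexin channel gene Panx1 had 29.1 to 41.3 CPM on the CD25-high and 30.4 to 34.7 on the CD25-low side (0.05 ± 0.23, edgeR adjusted p 0.958). Lrrc8a, a subunit of the volume-regulated anion channel, had a change of 0.41 ± 0.44 between groups (adjusted p 0.805) and was lower in the libraries numbered 1 (-1.44 ± 0.20, adjusted p 0.00155). Enpp1, another ectoenzyme that cleaves ATP, had 31.2 to 36.0 CPM on the CD25-high and 21.7 to 35.0 on the CD25-low side (0.22 ± 0.25, adjusted p 0.812).

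None of the tested genes that act behind the receptors passed in either fit. Over all tested genes 0.655% passed without the block and 4.63% with it, so nothing is read from this. The 7 tested effectors of P2X7, which cover the inflammasome, surface proteases and lipid scramblases, had log2 fold changes from -0.30 to 2.68. The upper end was Il18 (SE 1.34, edgeR adjusted p 0.508), a gene near the floor. It had 9, 20 and 48 counts across CD25-high 1 to 3 and 0, 15 and 0 across CD25-low 1 to 3. The highest CPM were those of the sheddase Adam17 (135 ± 22.3 against 153 ± 12.8 CPM, SD, n = 3, log2 fold change -0.18 ± 0.20) and the inflammasome protease Casp1 (73.9 ± 18.3 against 90.9 ± 24.5 CPM, -0.30 ± 0.27). Nlrp3, the inflammasome sensor, had no row. The 14 tested effectors of A2A and cyclic AMP ran from -0.90 to 0.83, with 11 below 0 and 3 above. Of all 12987 tested genes 6392 were below 0, and the split of the 14 was not tested. The highest CPM were those of Prkar1a, a regulatory subunit of protein kinase A (513 ± 186 against 532 ± 54.9 CPM, -0.05 ± 0.27), and Gnas, the stimulatory G protein subunit (286 ± 53.2 against 392 ± 27.6 CPM, -0.45 ± 0.20, edgeR adjusted p 0.431 alone and 0.0929 blocked). Gnas shares 1469 exonic bases with Gm20721 and Adam17 shares 311 with Iah1, each on the other strand.

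**Figure D5:**
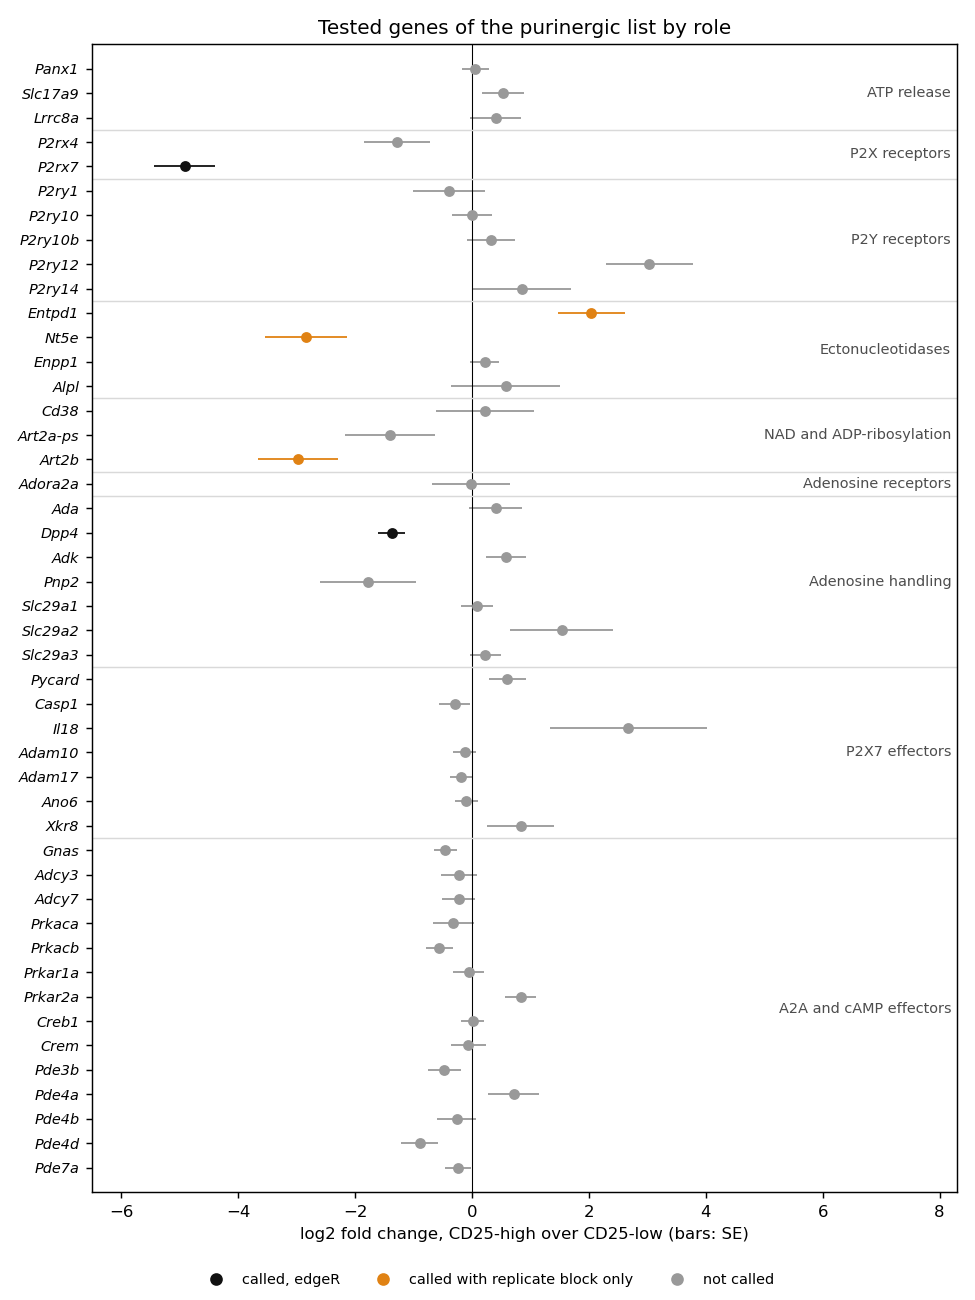
Log2 fold change (CD25-high over CD25-low, bars SE) of the 46 tested genes of the wider list, grouped by role. Black marks Dpp4, which passed the edgeR test, and P2rx7, which was chosen on this contrast. Of the 2 edgeR fits, Entpd1, Nt5e and Art2b, in orange, passed the one with the replicate block only, and the other 41 passed neither. DESeq2, without the block, called these 3 as well (adjusted p 0.0128, 0.00121 and 0.000485).

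The genes whose log2 CPM followed P2rx7 most closely over the 6 libraries, out of 8242 with a mean of at least 5 CPM, were Lats2, St6gal1, Ddx6, Asap1, Sostdc1 and Ptpn1. Pearson's r with P2rx7 ran from 0.996 for Lats2 to 0.984 for Ptpn1, and 162 genes were above 0.9. The libraries form 2 groups and the genes of a library share its depth, so r mostly reflects the group difference and carries no p. With the group means removed, r ran from 0.762 for Sostdc1 to 0.982 for St6gal1. The genes were picked on r over the same libraries, so these values are a description only. These 6 differed widely in the size of their change. The log2 fold change was largest for Sostdc1 (-6.49 ± 0.73, SE) and smallest for Ptpn1 (-0.33 ± 0.18), with Ddx6 at -0.40 ± 0.17. Sostdc1 had 0 to 0.680 CPM on the CD25-high and 23.2 to 28.7 on the CD25-low side. Asap1, a regulator of ARF GTPases, had 58.9 to 66.3 CPM on the CD25-high and 209 to 301 on the CD25-low side (log2 fold change -2.08 ± 0.21), while Lats2, a kinase of the Hippo pathway, had 14.1 to 15.8 and 20.8 to 23.0 CPM (-0.57 ± 0.25, edgeR adjusted p 0.431). St6gal1, a sialyltransferase, had 20.0 to 26.6 and 39.0 to 51.9 CPM. In edgeR it was called with the block only (-0.99 ± 0.23, adjusted p 0.118, and 0.025 with the block). DESeq2, fitted without the block, called it as well (adjusted p 0.00868).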

How the data were processed

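RNA was sequenced from 3 CD25-high and 3 CD25-low CD4+ T cell libraries. The deposited values are raw counts per gene ID. Per the submitters' processing notes, Novoalign and DESeq2 were used with the builds mm10 and hg19 named; their roles and versions, the counter and the use of strand were not given in the sources used here. All 15445 rows total at least 10 counts, so genes below that have no row. GENCODE M21 named 15169 rows and 276 were unmatched. The filter of edgeR 4.0.16 in R 4.3.3 (minimum count 10, minimum total 15) kept 12987 genes, tested on the group alone with TMM scaling and the quasi-likelihood test. A gene is called at a Benjamini-Hochberg adjusted p under 0.05 over all tested genes. SE is the log2 fold change divided by the root of F. Fits were tested on simulated data. Alternatives were DESeq2 1.42.0, limma voom (3.58.1), other scalings and filters, left-out libraries and a replicate block. For the block, same-numbered libraries were checked over 2000 genes: their deviations from the group means correlated at 0.34, 0.19 and 0.16. CD25-high 2 and CD25-low 3, which differ in number, correlated at 0.13 as well. The numbers come from the sample titles, which do not say that same-numbered libraries are paired, so the pairing is inferred. Depth was 16787233 to 23567066 counts. Replicates of a group differed beyond counting noise.

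Members and lists were chosen with earlier results of these data known. Named are the 5 members and each listed purinergic gene called with or without the block. The 2 genes of each role with the highest mean CPM and the neighbours with the largest and smallest change are named too. So are Il2ra and the leading markers of B cells, of monocytes and macrophages and of regulatory T cells. Those of the other cell types are not named. Last come the 6 genes closest to P2rx7 among 8242 with a mean CPM of at least 5. Named outside that rule, after values were seen, are P2ry12, Cd38, Adcy7, Prkaca, Pde3b, Il18, Atp2a2 and Ift81. The markers Foxp3, Ikzf2, Lyz2, Csf1r, Cd3d, Cd3g and Trbc1 were also named outside it, after values were seen. Sequences and starts come from the RefSeq table (GRCm38.p6), which matched 4 of 5 members.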

Additional observations from a re-analysis of the deposited data

How the results depend on the processing

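P2rx7, chosen on this contrast, had a log2 fold change of -5.45 to -4.52 without 1 library. With the replicate block members called went from 1 to 3, and to 3, 3 and 3 without pair 1, 2 or 3, listed genes called lower from 2 to 4 (4, 4 and 4) and higher from 0 to 1 (1, 3 and 2), and all tested genes called higher from 20 to 225 (144, 184 and 233) and lower from 65 to 376 (317, 302 and 303). DESeq2 gave 3 members, 4 listed genes lower and 2 higher, and 116 higher and 260 lower over all genes. Without 1 library and without the block, 1 to 2 listed genes were lower, 2 to 23 of all genes were higher and 20 to 107 lower. Entpd1 (adjusted p 0.155 to 0.435) and Nt5e (0.0762 to 0.341) were not called in any of those 6 fits, and both were called in each block fit that left out a pair (highest 0.0428 and 0.0337). For libraries numbered 1 against the others, library size alone gave 1 member, 9 listed genes lower and 275 higher over all genes, the stricter filter gave 1 member, and leaving out 1 library gave 0 to 1 members, 1 to 4 listed genes lower, 103 to 340 of all genes higher and 222 to 330 lower. For the library size and stricter filter fits the share of all tested genes called is not given in full, so nothing is read from their counts. The causes were not tested. Of 612 gene values under alternatives over 34 genes, 552 kept direction and side of the threshold, 25 came to pass it, 5 no longer did (Dpp4) and 30 changed sign, all of genes not called before: Adora2a (DESeq2 0.000818, voom 0.40, block 0.41, 0.73 and 0.95 with the block without pair 2 or 3, left-out libraries -0.52 to 0.47), Panx1 (left-out libraries -0.094 to 0.16, -0.17 with the block without pair 2), P2ry10 (left-out libraries -0.19 to 0.26, voom -0.012, library size -0.010, block -0.021, -0.16 without pair 1), Slc29a3 (-0.10) and Casp1 (0.063) with the block without pair 1, Prkar1a (-0.28 to 0.21 over left-out libraries, block without pair 1 0.12), Anapc5 (-0.074 to 0.13 over left-out libraries, -0.16, block without pair 2), Cd38 (-0.70 to 0.71 over left-out libraries, -0.15 with the block without pair 2) and Adcy7 (-0.43 to 0.0026). For libraries numbered 1 against the others P2rx7 ran from -1.11 to 1.23 over left-out libraries. Low counts limit Nt5e in CD25-high library 3 and Entpd1 in CD25-low library 1.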

Other observations

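P2ry12, the ADP receptor best known from platelets and microglia, lies outside the rule for named genes and was picked after its values were seen. It had 16.2, 3.14 and 4.46 CPM across CD25-high 1 to 3 and 0.383, 1.19 and 1.28 CPM across CD25-low 1 to 3, without overlap. The log2 fold change was 3.04 ± 0.74 (SE, edgeR adjusted p 0.127), with 0.0526 under the replicate block and 0.00148 in DESeq2. Red cell and platelet markers summed to 2.27 to 2.99 CPM on the CD25-high and 2.07 to 4.10 on the CD25-low side, with 6 of 8 having no row, and their part in the P2ry12 values was not tested.

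In the libraries numbered 1, whichever their CD25 group, 5 of 46 listed genes were lower and 0 higher than in those numbered 2 and 3 (edgeR, where 3.98% and 3.19% of all tested genes were). At an unadjusted p under 0.05 there were 13 lower and 2 higher. The share of all tested genes at that threshold is not given here, so nothing is read from these counts. Beside Lrrc8a and Cd38 the 5 were cyclic AMP genes: the adenylyl cyclase gene Adcy7 (-0.77 ± 0.18, adjusted p 0.02), the protein kinase A catalytic subunit gene Prkaca (-0.93 ± 0.25, adjusted p 0.0385) and the phosphodiesterase gene Pde3b (-0.69 ± 0.18, adjusted p 0.0352). Cd38, Adcy7, Prkaca and Pde3b lie outside the rule for named genes and were picked for these calls. Of 6 fits that each left out 1 library, Lrrc8a was called in 6 (highest adjusted p 0.0264), Cd38 in 3 (0.0878), Adcy7 in 2 (0.13), Prkaca in 1 (0.153) and Pde3b in 1 (0.205). Fits without a library numbered 1 hold only 1 such library, which is assumed to vary like the others. Lrrc8a shares 2853 exonic bases with Gm28035 on its own strand.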
